A study of Drosophila simulans with 12 samples.

Results

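The dosage compensation machinery of Drosophila was examined in testis and abdomen of Drosophila simulans males from a sterile and a fertile line. Members were the probe sets that the platform annotation names msl-1, msl-2, msl-3, mle, mof, roX1, roX2, Clamp, JIL-1 or Top2. Of these 10 names, 7 had a probe set in each tissue, with 8 of 18769 probe sets in testis and 7 of 13966 in abdomen. No probe set carried the symbol roX1, roX2 or Top2, so the 2 noncoding RNAs of the complex and the topoisomerase were not analysed here.

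Dosage compensation raises transcription of the single male X chromosome to match the paired autosomes. In D. melanogaster the MSL complex carries this out in somatic cells. MSL1 and MSL2 form its core, MSL3 binds methylated chromatin on active genes, MLE is a helicase that loads the roX RNAs, and MOF acetylates histone H4. CLAMP binds GA-rich sites to which the complex is recruited, and JIL-1 is a histone H3 kinase enriched on the male X. In the male germ line of D. melanogaster the complex has not been seen on the X, which makes testis, a mixture of germ line and somatic cells, an unusual tissue for these genes.

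Both lines have a D. simulans background with part of the X chromosome replaced by that of D. mauritiana. The sterile line has the S variant and the fertile line the F variant at the OdsH locus, and by the series design the lines differ in about 3 Kb that holds exons 3 to 4 of this homeobox gene. Males were 3 to 4 days old, and on average 150 were dissected for testis and 50 for abdomen. Each line and tissue is represented by 3 arrays of separate RNA extractions, lettered A to C, so that 12 arrays fall into 4 groups. Each line is a single introgression line, so differences cannot be tied to the 3 Kb stretch alone. The labels do not say whether these extractions go back to separate cultures. The p-values below therefore reflect only array-to-array spread, part of which may be technical. The probes were designed for D. melanogaster, and mismatches with the D. simulans sequence were not corrected. No genome positions are given, because the gene table used here does not pair these symbols with D. simulans genes.

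Testis arrays correlated at 0.997 to 0.998 within a line and 0.964 to 0.965 between lines, and abdomen arrays at 0.905 to 0.937 and 0.89 to 0.932. The median residual SD of a probe set (log2) was 0.05 for testis and 0.30 for abdomen. All 14 testis germ line markers had a probe set in testis and none was called absent on every array. Of 5 genes of testis soma with a probe set, 4 were called present on at least 1 array of each line. The other, tj, was absent on all 6 arrays. Accessory gland genes were also strong in the testis samples. Sums over 10 of them ran from 41735 to 44136 on the 6 arrays, beside 32117 to 33614 for the 14 germ line markers. These samples thus held RNA of accessory gland genes, and its share in the member values was not measured. In abdomen all 7 fat body, 12 of 13 midgut, 6 of 7 muscle and 7 of 10 accessory gland markers reached the level required for testing. So did 5 of 13 germ line markers, and Mst84Da had means of 24268 in the sterile and 24818 in the fertile line. The abdomen samples therefore also held transcripts of germ line genes. OdsH was called absent on all 6 testis arrays, at an intensity of 127.6 ± 4.33 (SD, n = 3) in the sterile and 165.3 ± 25.1 in the fertile line (exact two-sided permutation p = 0.1, the smallest that 3 against 3 arrays allow). The part of OdsH that its probe set covers is not known here, so these values cannot check the labels.

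In testis the chromatin partners Clamp and JIL-1 were lower in the sterile line. The complex genes msl-1 and mof did not pass the test on the deposited scale, and msl-3 passed with only 1 of its 2 probe sets. A difference between partners and complex genes was not tested. The interval of msl-1, given below, holds the change of Clamp. Of the 7 genes measured in testis, 5 passed the filter on detection and were tested, and 2 of these fell while none rose. JIL-1, 1 of the 2, entered only through the fertile line, in which it was higher, so the filter partly fixes this count. Under a stricter filter that asks for present calls on all arrays of both lines, 1 of 4 tested genes fell. Over all 9927 probe sets tested, 60.4% passed, with 22.6% called higher and 37.8% called lower in the sterile line. The members' count of 2 in 5 does not exceed that background and shows nothing particular to dosage compensation. The balance of all calls, 2245 higher and 3750 lower, was 2941 and 2941 after median centring and 3028 and 2959 after quantile normalization. The median log2 fold change of the 5 tested genes was -0.09 against -0.04 for all probe sets, and -0.04 against 0.01 with each array centred on its median.

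**Figure D1:**
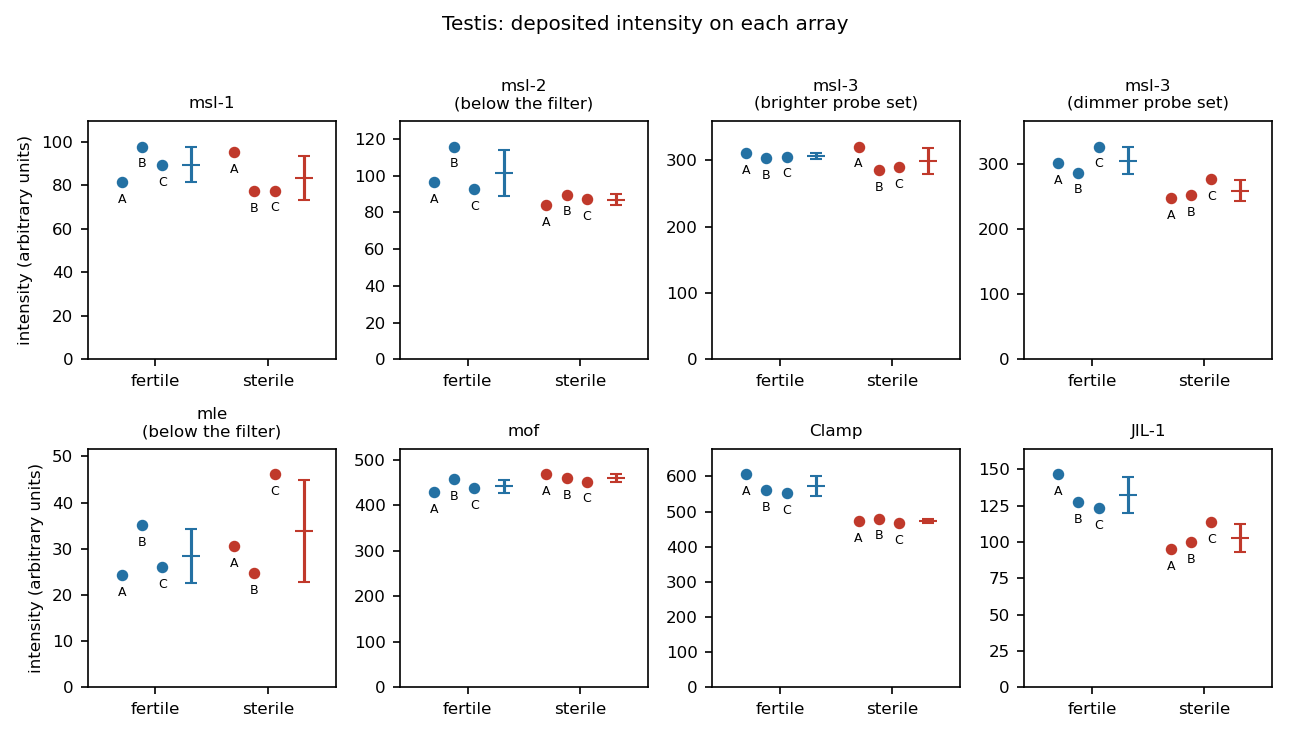
Intensity of the 8 member probe sets on each testis array, in arbitrary units, with points lettered by replicate and bars giving the mean ± SD of 3 arrays. The sterile arrays lie wholly below the fertile ones for msl-2, the dimmer msl-3 probe set, Clamp and JIL-1, and overlap them for the others. Over all probe sets tested, 40% had every sterile array below every fertile one.

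Clamp encodes the zinc finger protein that binds GA-rich recruitment sites. Its testis intensities were 471.9, 480.3 and 467 on the sterile arrays A, B and C and 605.5, 561.4 and 552.4 on the fertile ones. The lines did not overlap, and the lowest fertile array stood above the highest sterile array by more than the range of the sterile arrays. Over all probe sets tested, 64.3% had lines that did not overlap. The log2 fold change, sterile over fertile on log2(intensity + 16), was -0.27 ± 0.04 (SE; 95% interval -0.36 to -0.18; limma adjusted p = 4.89e-05). Under quantile normalization it was -0.19. In the authors' deposited table the fertile over sterile fold of Clamp was 1.21, with an unadjusted p of 0.0143 and a paired p of 0.0355.

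JIL-1 encodes the histone H3 kinase. Its testis intensities were 95.2, 99.9 and 113.7 in the sterile line and 146.4, 127.6 and 123.4 in the fertile line. Every sterile array lay below every fertile array, with 113.7 on sterile array C next to 123.4 on fertile array C. The same order held for 40% of all probe sets tested. The log2 fold change was -0.32 ± 0.09 (SE; 95% interval -0.51 to -0.13; limma adjusted p = 0.00571). JIL-1 was called present on 100% of fertile but 66% of sterile arrays, so only the fertile line, in which it was higher, brought it past the filter. In the authors' deposited table its fertile over sterile fold was 1.28, with an unadjusted p of 0.0488 and a paired p of 0.153.

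For msl-1, the scaffold of the complex, the sterile arrays measured 95.1, 77.2 and 77.6 and the fertile arrays 81.5, 97.8 and 89.2. Sterile array A lay among the fertile arrays, and the lines overlapped. The log2 fold change was -0.09 ± 0.10 (SE; 95% interval -0.31 to 0.13; limma adjusted p = 0.47), so a change as large as that of Clamp lies inside the interval.

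The gene msl-2 encodes the ubiquitin ligase subunit whose translation is restricted to males. It was called present on 66% of sterile and 33% of fertile arrays and stayed below the filter. The sterile arrays measured 83.9, 89.7 and 87 and the fertile arrays 96.3, 115.8 and 92.5, so all sterile values lay below all fertile ones (exact two-sided permutation p = 0.1). Among the probe sets tested, which leave out msl-2, 40% had this order. In a fit of all probe sets without a filter its log2 fold change was -0.19 ± 0.10 (SE; limma adjusted p = 0.183), which did not pass.

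For the helicase gene mle, no testis array of either line gave a present call. Its sterile values were 30.6, 24.8 and 46.1 and its fertile values 24.2, 35.1 and 26, and no fold is given because both lines were at background. A probe set at background on this array does not show that the transcript is missing.

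Both probe sets of msl-3, which encodes the chromodomain subunit, were called present on every testis array, yet only one of them was called. The brighter one measured 320.9, 285.8 and 289.4 in the sterile and 311.5, 303.5 and 305.6 in the fertile line. Its lines overlapped, and the log2 fold change was -0.04 ± 0.05 (SE; limma adjusted p = 0.559), turning to 0.01 with median centring and 0.02 with quantile normalization. The dimmer one measured 248, 251.8 and 277.4 in the sterile and 301.9, 287 and 326.9 in the fertile line. Here the lines did not overlap, and the log2 fold change was -0.22 ± 0.06 (SE; 95% interval -0.35 to -0.09; limma adjusted p = 0.00475). All sterile arrays lay below all fertile ones, as in 40% of all probe sets tested. In the authors' deposited table the fertile over sterile fold of this dimmer probe set was 1.18, with an unadjusted p of 0.0526 and a paired p of 0.0394. With any probe set counted, 3 of the 5 tested genes fell in place of 2. Counting this way can only raise the count of any gene list. No such share was computed over all genes, so this count has no background beside it.

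Within each array, log2 of the dimmer minus log2 of the brighter was -0.35, -0.17 and -0.06 in the sterile line and -0.04, -0.08 and 0.09 in the fertile line. Sterile array C fell between the fertile values, and the lines differed by -0.18 on the log2 scale (exact two-sided permutation p = 0.2, where 0.1 is the smallest possible). With 3 arrays a line this test cannot reach 0.05, so it does not settle whether the 2 probe sets responded differently.

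The acetyltransferase gene mof was the only tested member with higher means in the sterile line. The sterile arrays measured 467.6, 459.8 and 452.1 and the fertile arrays 428.5, 457.9 and 438.2. Fertile array B lay within the sterile range, so the lines overlapped. The log2 fold change was 0.06 ± 0.04 (SE; 95% interval -0.03 to 0.15; limma adjusted p = 0.266). It was 0.10 with median centring (adjusted p = 0.0596) and 0.13 with quantile normalization (adjusted p = 0.0131), so the call for mof depended on the scaling. In D. melanogaster mof lies on the X chromosome, and whether it lies in the introgressed segment of these lines was not tested.

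**Figure D2:**
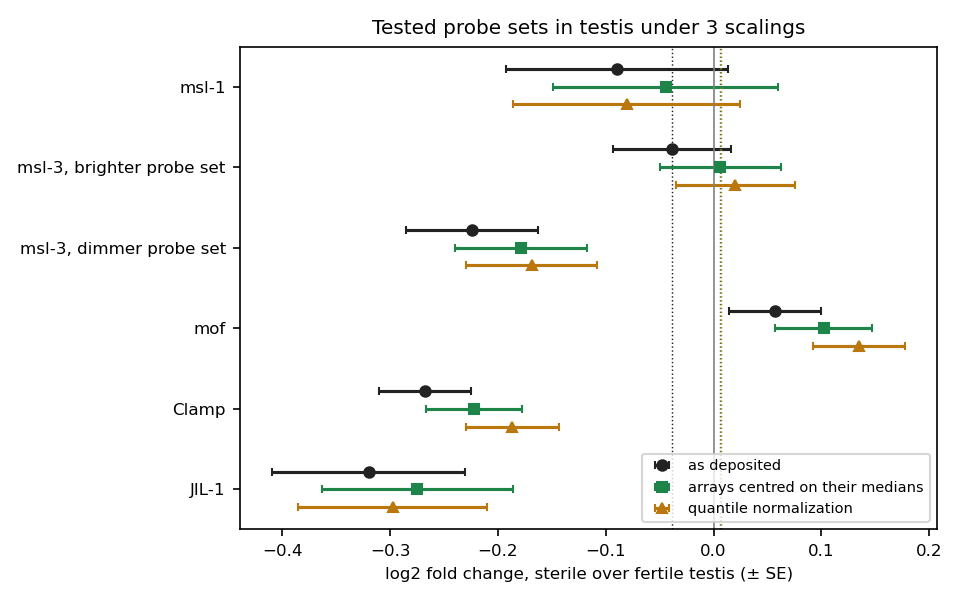
Log2 fold change of sterile over fertile testis, ± SE, for the 6 tested member probe sets with intensities as deposited, centred on array medians or quantile normalised, and with dotted lines at the median of all probe sets tested. Clamp, JIL-1 and the dimmer msl-3 probe set lie left of these medians under each scaling, while mof lies right of them. The points of msl-1 also lie left of the medians, with bars that cross them.

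Each sterile testis array had a lower median, 212.2 to 216.2, than any fertile one, 219.4 to 221.9. The only member call that changed with the scaling, that of mof, did so under quantile normalization and not under median centring. Clamp and JIL-1 passed with the same sign under all 3 scalings, with log2 fold changes of -0.22 and -0.27 after median centring. All 3 used the same filter, which JIL-1 passed through the fertile line alone. On the deposited scale both changes were larger than the median absolute log2 fold change of all probe sets tested, which was 0.14.

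Some markers of other tissues also differed between the testis samples. Summed intensities of 13 midgut genes ran from 1508 to 1638 on the sterile and from 14846 to 15149 on the fertile arrays, and all 8 midgut genes tested fell. Of these 8, 6 entered the test through the fertile line alone, in which they were higher, so the filter partly fixes that count, and the 2 present on every array of both lines, yip7 and Bace, both fell. For 7 fat body genes the sums were 7525 to 7598 against 9121 to 9393, with 4 of 5 tested genes lower and 1 higher, and Fbp1 absent on every array. For 10 accessory gland genes they were 41735 to 42032 against 43859 to 44136, with 4 lower and 1 higher of 9 tested. For 7 muscle genes they were 3316 to 3468 against 3605 to 3762, with 2 lower and 1 higher of 7. Among these, Zasp52 measured 858.9 ± 23.3 (SD, n = 3) against 1152 ± 49.1, while Act88F was higher in the sterile line. Over all probe sets tested, 37.8% were called lower and 22.6% higher. The muscle and accessory gland counts do not stand apart from that background. The sums of 14 germ line markers overlapped, at 32117 to 33074 against 32968 to 33614, with 3 higher and 3 lower of 11 tested. In contrast, the sums of 5 genes of testis soma were higher in the sterile line, at 1076 to 1134 against 902.3 to 962.6, with 3 of 4 tested genes higher. One of the 3, upd1, passed the filter only through the sterile line, in which it was higher. These counts hold on the deposited scale. After median centring they were 3 lower and 3 higher for accessory gland, 2 and 2 for muscle and 1 and 3 for germ line genes. Over all probe sets 29.6% were then called lower and 29.6% higher. The part of these shifts in the values of Clamp and JIL-1 was not tested. In such bulk samples fewer cells of a type and less RNA per cell cannot be told apart.

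Likeness of pattern was measured as Pearson's r of log2 values over the 6 testis arrays, among 7916 other genes tested. The gene most like Clamp was Ugt35E2, at r = 0.997, with intensities of 196.6 ± 9.32 (SD, n = 3) in the sterile and 307.2 ± 31.8 in the fertile line. As many as 628 genes reached an r of 0.95 with Clamp. The gene most like JIL-1 was CG32767, at r = 0.997, with 148.6 ± 9.41 against 184.7 ± 13.8, and 74 genes reached an r of 0.95. These values describe 6 arrays that share the same 2 lines, and genes are not independent replicates.

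In abdomen no member passed the test, and most member probe sets were too dim to enter it. Only Clamp reached the median level required for testing. It measured 431.8, 344.8 and 415.3 on the sterile arrays and 419.2, 427 and 444.6 on the fertile ones. Sterile array A lay within the fertile range, while sterile array B was the lowest of the 6. The log2 fold change was -0.12 ± 0.22 (SE; 95% interval -0.61 to 0.37; limma adjusted p = 0.941). Of all 6983 abdomen probe sets tested, 0.544% passed, which is 38 probe sets, or 65 with the replicate letter as a block. An unadjusted p under 0.05 was found for 8.12% of them but not for Clamp. The lines did not overlap in 14.1% of the probe sets tested and in none of the members. The abdomen interval for Clamp holds both 0 and the log2 fold change seen in testis.

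**Figure D3:**
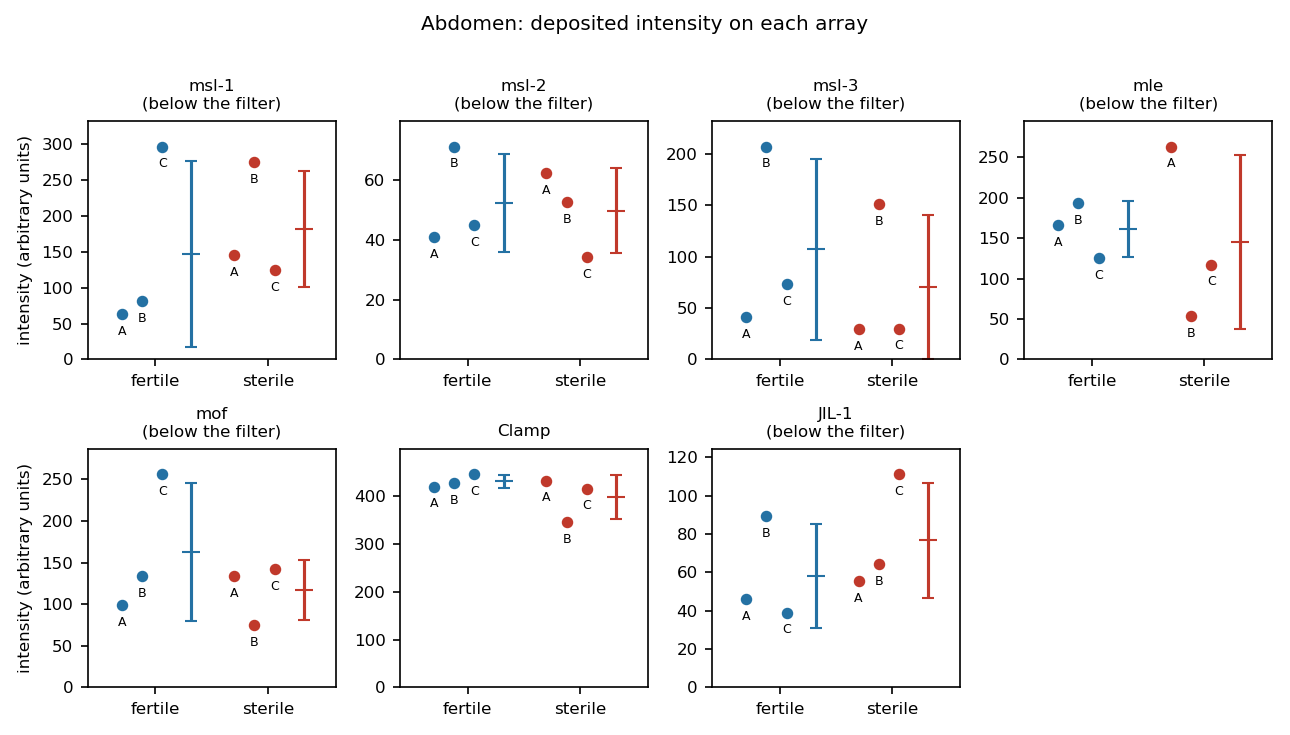
Intensity of the 7 member probe sets on each abdomen array, in arbitrary units, with points lettered by replicate and bars giving the mean ± SD of 3 arrays. The lines overlap for all 7 genes, and the scatter within a line is wide except for Clamp.

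The other 6 abdomen genes are given as values, with a fit of all probe sets without a filter beside them. For msl-1 the sterile arrays measured 145.2, 274.5 and 124.7 and the fertile arrays 63.2, 80.8 and 296.4. The lines overlapped through fertile array C, the highest of the 6, and the log2 fold change was 0.49 ± 0.59 (SE). For msl-2 they measured 62.2, 52.6 and 34.2 against 40.8, 71.1 and 44.8, with a log2 fold change of -0.05 ± 0.41. The values of msl-2 interleaved between lines.

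For msl-3 the sterile abdomen arrays measured 29.7, 151.4 and 30.1 and the fertile ones 41, 207.3 and 73.7. Array B was the highest in both lines, and the sterile value was lower under each of the 3 letters, with differences of -11.3, -55.9 and -43.6 intensity units under A, B and C. With the letter as a block the log2 fold change of msl-3 was -0.56 ± 0.45 (SE; limma adjusted p = 0.786), and without it -0.56 ± 0.68 (adjusted p = 0.924). Neither fit passed.

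For mle the abdomen values were 263.5, 54.1 and 117.4 in the sterile and 166.1, 193.7 and 125.4 in the fertile line, with a log2 fold change of -0.35 ± 0.55 (SE). Both the highest and the lowest of these 6 values of mle came from the sterile line. For mof they were 133.3, 75.4 and 141.9 against 98.6, 133.3 and 255.9, with -0.37 ± 0.49. For JIL-1 they were 55.3, 64.1 and 111 against 45.9, 89.3 and 39, with 0.34 ± 0.47. The limma adjusted p of these 6 genes without a filter ran from 0.924 for msl-3 to 0.994 for msl-2, and the lowest unadjusted p was 0.43.

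Precision differed between the tissues. Within a line, the SD of a member probe set was 1.36% to 32.6% of its mean in testis and 3.02% to 99.6% in abdomen. The narrowest spread in abdomen was that of Clamp in the fertile line and the widest that of msl-3 in the sterile line. The abdomen 95% interval for msl-3, -2.10 to 0.97 without a filter, spans changes far larger than those measured for Clamp and JIL-1 in testis, so changes of that size were not detectable there.

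The effect in testis was compared directly with that in abdomen for the genes tested in both. Clamp was the only member among 4709 such genes. Its log2 fold change in testis minus that in abdomen was -0.15 ± 0.22 (SE; 95% interval -0.64 to 0.34; adjusted p = 0.813, from the 2 limma fits), and its unadjusted p was 0.51. Of all 4709 genes, 3.16% passed and 15.5% had an unadjusted p under 0.05. Without filters, JIL-1 had the largest difference of the members measured above background in testis, -0.66 ± 0.48 (SE; adjusted p = 0.657). A tissue-specific response was therefore shown for none of these genes. Because the abdomen samples also held germ line signals, abdomen was not a comparison free of testis transcripts.

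Genes linked to dosage compensation were taken from 3 lists, the NSL complex, regulators of msl-2 and chromatin factors tied to dosage compensation. Of 25 listed genes, 21 had a probe set in testis and 17 were tested, of which 10 fell and 1 rose. The share called either way was 64.7%, beside 60.4% of all probe sets, and the share called lower was 58.8%, beside 37.8%. With arrays centred on their medians 9 fell and 2 rose, and with quantile normalization 8 fell and 1 rose. The shares called lower were then 52.9% and 47.1%, beside 29.6% and 29.8% of all probe sets. No test of the lists as groups was made, and the lists were chosen with earlier results of these data known. Each listed gene was counted by its brightest probe set, while the shares beside it are over all probe sets. In abdomen 15 were tested in limma, and none passed or had an unadjusted p under 0.05.

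The NSL complex is the other complex that holds MOF, and it acts at promoters of both sexes. Of its 6 genes 4 were tested in testis, with 1 higher and 1 lower. dgt1, the gene that rose, measured 540.2 ± 14 (SD, n = 3) in the sterile and 479.2 ± 18.1 in the fertile line, with a log2 fold change of 0.17 ± 0.04 (SE; limma adjusted p = 0.00264). Rcd5, the gene that fell, measured 458.4 ± 17.5 against 536.2 ± 24.5, with -0.22 ± 0.05 (adjusted p = 0.00056). Neither Rcd1 nor wds passed.

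Of the 4 regulators of msl-2 and of its partners tested in testis, 3 fell and 0 rose (median log2 fold change -0.26), beside 37.8% called lower and 22.6% called higher over all probe sets. Hrb27C, an RNA-binding protein that takes part in translational control of msl-2, measured 1960 ± 5.7 (SD, n = 3) in the sterile and 2510 ± 34.3 in the fertile testis, with -0.35 ± 0.02 (SE; limma adjusted p = 8.67e-10). The RNA helicase gene Rm62 had a log2 fold change of -0.30 ± 0.03 and Unr, a corepressor of msl-2 translation, one of -0.22 ± 0.06. Sxl, which blocks msl-2 translation in females, did not pass, with means of 221.3 ± 14.3 in the sterile and 210.9 ± 4.77 in the fertile line for its brightest probe set. In abdomen Hrb27C measured 1023 ± 67.1 against 796.2 ± 221.6 and did not pass.

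Chromatin factors tied to dosage compensation had 6 lower and 0 higher of 9 tested on the deposited scale, 5 lower and 1 higher after median centring, and 4 lower and 0 higher after quantile normalization. Over all probe sets the shares called lower under these scalings were 37.8%, 29.6% and 29.8%. Trl, which encodes the GAGA factor, measured 336.8 ± 16.9 (SD, n = 3) in the sterile and 496.3 ± 4.44 in the fertile testis, a log2 fold change of -0.54 ± 0.05 (SE; 95% interval -0.64 to -0.44; limma adjusted p = 4.13e-08). pzg, a zinc finger protein of interbands, had -0.33 ± 0.06 and Set2, a histone H3 methyltransferase, -0.33 ± 0.09. Set2 was called present on 66% of sterile arrays and was let past the filter by the fertile line alone. Trl and pzg were each called present on 33% of fertile and 100% of sterile arrays although their intensities were higher in the fertile line. In abdomen Trl measured 325.7 ± 27.5 against 340.7 ± 54.7 and did not pass.

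**Figure D4:**
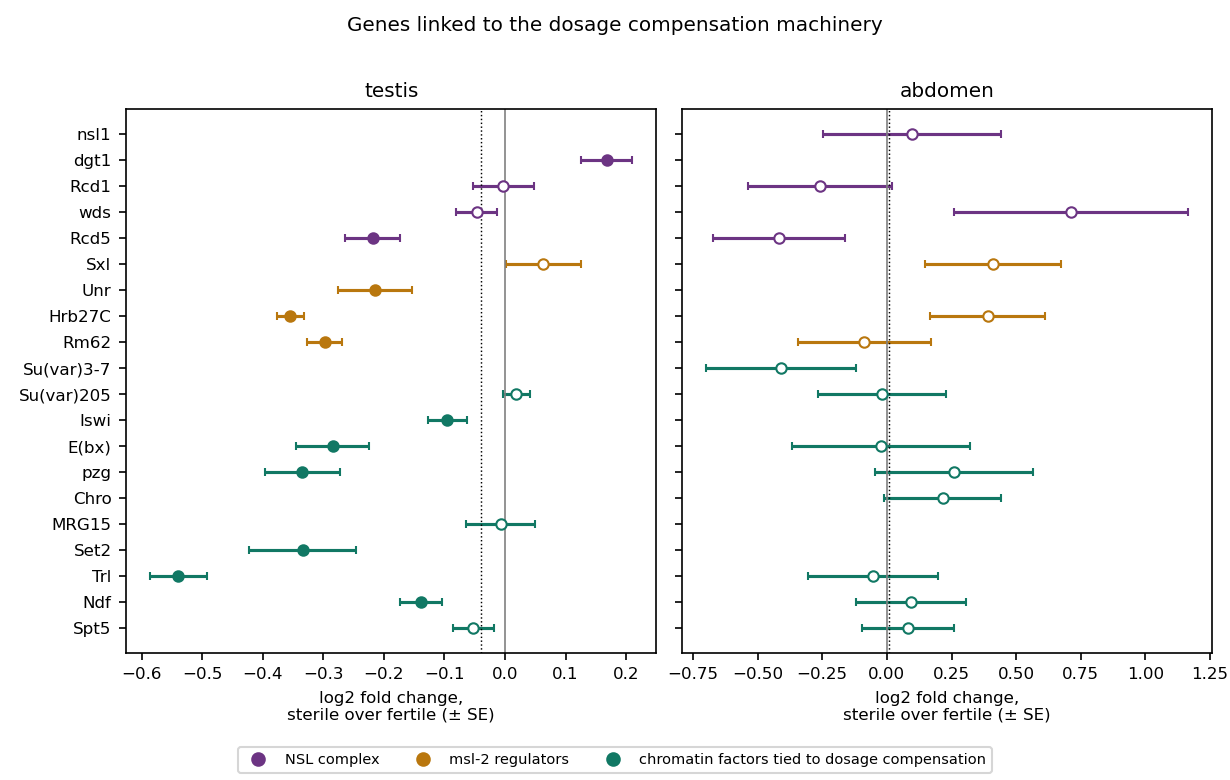
Log2 fold change of sterile over fertile, ± SE, for the tested genes of the NSL complex, of msl-2 regulation and of the linked chromatin factors, in testis and abdomen, with filled points for adjusted p under 0.05 and a dotted line at the median of all probe sets tested. In testis 10 filled points lie below 0 and 1 above on the deposited scale plotted (9 and 2 after median centring, 8 and 1 after quantile normalization), and in abdomen no point is filled.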

How the data were processed

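Labelled RNA was read on 2 Affymetrix designs, one per tissue. The deposited values are linear intensities. Per the submitters' processing notes MAS5 was used, but 26 to 37 testis values per array are below 0, which MAS5 signals cannot be, so how the testis intensities were made is not given in the sources used here. The authors' deposited table gives, per the file headers, detection calls as the percent of each line's arrays, a signed fold score and p-values for fertile against sterile testis. Its experiment mean lay within 2% or 2 units of the fertile mean for 99.7% of probe sets, which set the direction. Its 12 columns of single arrays were left out, since each name fits a testis and an abdomen sample alike.

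Values below 0 were set to 0 and log2(intensity + 16) was taken, which understates changes of dim genes. Testis probe sets were tested if present on 100% of the arrays of a line, and abdomen probe sets if their mean was at least the median of 7.76 on the log2 scale, after 44 control probe sets were left out. Each tissue was fitted alone in limma 3.58.1 (R 4.3.3) with an intensity trend. A probe set was called at a Benjamini-Hochberg adjusted p under 0.05 over all probe sets tested. The brightest probe set by mean stood for a gene. The tissue difference used both fits' standard errors with Satterthwaite degrees of freedom. These fits were tested on simulated data, with 50 probe sets changed at each size in each tissue. Log2 changes of 0.25 and 0.5 were recovered for 60% and 98% of them in testis and for 0% and 2% in abdomen. For the tissue difference 0% and 7.27% were recovered. False calls made up 1.65% of the calls in testis, 5.77% in abdomen and 3.95% in the difference. Only these few probe sets were changed, whereas 60.4% of testis probe sets were called in the data. The simulated noise was independent between arrays, so it left out the likeness by letter in abdomen described below. These rates therefore need not hold for the data. The number of arrays limits the precision.

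Members and lists were chosen with earlier results of these data known. All members and OdsH are named, with at most the 3 largest calls per linked list, direction and tissue, and the gene most like each called member. Genes named beyond this rule (Rcd1, wds, Sxl, tj, Fbp1, upd1, yip7, Bace and the abdomen values) were chosen after their values were seen. Arrays of the same letter deviated together in abdomen (correlations 0.15, 0.288 and 0.26 across probe sets), while unlike letters gave -0.221 to -0.0157. Deviations from the mean of a line cancel over its 3 arrays, so these negative values largely follow from the positive ones. In testis the same letters (-0.0683, 0.153 and 0.0541) did not stand apart from unlike ones (-0.197 to 0.161). The main abdomen fit leaves out this likeness by letter, and the replicate letter was fitted as a block only as an alternative. Alternatives were other pseudocounts, scalings, filters, no trend, the block, a joint fit and leaving out each array.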

Additional observations from a re-analysis of the deposited data

How the results depend on the processing

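The count of 2 called members in testis stayed at 2 when any single array was left out (range 2 to 2), with pseudocounts of 1 and 64, with median centring, without an intensity trend, without a filter and with the replicate letter as a block. It was 3 with quantile normalization, which added mof, 3 when any probe set of a member counted, a choice made after seeing the data, and 1 under the stricter filter, which JIL-1 does not enter. The adjusted p of Clamp ranged from 2.19e-05 to 0.00155 over 14 alternatives and that of JIL-1 from 0.00373 to 0.0435 over 13. The brighter msl-3 probe set changed sign, to 0.0063 and 0.020, under median centring and quantile normalization, and its other probe set gave -0.22. No member was called in abdomen or in the difference between tissues under any alternative (range 0 to 0 without single arrays).

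All abdomen probe sets called numbered 38, but 15 without an intensity trend, 65 with the replicate block, and 20 to 31 when an array was left out. These were 23 without sterile replicate A, and 21, 25 and 20 without fertile replicates A, B and C. The testis count of 5995 ran from 5396 to 5914 without single arrays and was 6117 with the block, although same letters did not stand apart in testis. The block, fitted for all tested members, changed no other call. In abdomen 6 of 7 members were too dim for the filter on level, and in testis 2 of 7 members failed the filter on present calls.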
